A study of Mus musculus with 9 samples.

Results

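The regions described here are clusters of EWS/ATF1 binding sites in G1297, a mouse clear cell sarcoma line, together with the binding sites called at the same places in fibroblasts that share genetic abnormalities with it. A cluster was formed by joining neighbouring G1297 peaks with at most 12500 bp between their edges and keeping groups of 3 or more. The members were thus chosen by the positions of the G1297 peaks, and the values of the G1297 list are given as a description without a test. Of 6105 joined groups, 403 had 3 or more peaks, 942 were pairs and 4760 were solitary peaks.

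EWS/ATF1 is the fusion protein of clear cell sarcoma, in which the amino-terminal part of EWS, a strong transcriptional activator, is joined to the DNA-binding domain of ATF1. Through this domain it binds the cyclic AMP response element (CRE), the short sequence that CREB and ATF proteins recognise as dimers. In many cell types, binding sites of transcription factors lie close together in enhancers, and stretches with several neighbouring enhancers are often joined for analysis and called super-enhancers or stitched enhancers when they carry a high signal. The clusters here were defined from EWS/ATF1 peaks alone, and no mark of enhancer activity was used.

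G1297 is a single line established from a sarcoma of EWS/ATF1-inducible mice, and it carries doxycycline (Dox)-controlled EWS/ATF1 with a hemagglutinin (HA) tag. The sarcoma MEFs are embryonic fibroblasts from chimeric mouse embryos made with iPSCs that had been reprogrammed from G1297, and were selected with puromycin. Both were given Dox at 0.2 µg/ml for 12 h, and the DNA bound by EWS/ATF1 was recovered with an HA antibody and sequenced (ChIP-Seq). The labels describe 2 ChIP libraries of G1297 and 1 of the MEFs, whereas the authors' processed data used here are 1 list of peaks per cell type.

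A peak is a region in which the ChIP reads exceed the background, and its score is -10 times the log10 of the P value given by the peak caller. The lists held 8090 peaks in G1297 and 27130 in the MEFs, in mouse genome build mm9. They carry no values per replicate and no read counts, so the read depth is unknown and differences between the lists have no replicate check. The scores of the lists are therefore not on 1 scale. Where scores of both are printed for a site they are a description, and positions within each list are given as percentiles. A percentile depends on the length of its list, so a difference of percentiles is a difference of rank and not a measure of binding strength. A position without a MEF peak is one where no region passed the authors' threshold. The intervals given with shares are 95% exact Clopper-Pearson intervals, which cover counting error only and treat neighbouring peaks as independent.

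Most clusters were small. They had 3 peaks in 259 cases (64.3%), 4 in 85 and 5 in 40, and only 19 clusters had more, namely 10 of 6 peaks, 5 of 7 peaks, 3 of 8 peaks and 1 of 10 peaks. Together they held 1446 G1297 peaks, 17.9% of the list, while 23.3% lay in pairs and 58.8% were solitary. The median span, from the first base of the first peak to the last base of the last, was 13.8 kb, with quartiles of 9.17 and 19.4 kb, and spans ran from 2.79 to 61.3 kb. All spans together covered 6.16 Mb, and G1297 peaks filled a median of 24.0% of a span.

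By the rule, no gap between neighbours in a cluster exceeds the joining distance, so the gaps are given as a description. Of the 1043 gaps between neighbours, the median was 3686 bp and 612 (58.7%) were under 5000 bp. At the short end, 138 gaps were under 500 bp, and 125 clusters had at least 1 such gap. Whether neighbours this close are separate sites cannot be told from the lists. Counting neighbours less than 1000 bp apart as 1 peak, a choice made after seeing the gaps, left 295 clusters with 13.4% of the peaks so counted.

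Near the threshold of the joining distance, the values on its inner and outer sides were as follows. The 3-peak cluster with the widest inner gap, chr17:64948471-64968864, was held together by a gap of 12376 bp, 124 bp under the joining distance, and had 1 MEF peak. The next such clusters, on chromosomes 6 and 1, had gaps of 12268 and 12211 bp, with 2 and 4 MEF peaks. Just outside was a pair on chromosome 12, chr12:74869646-74881272, whose next peak lay 12503 bp away, and which had 0 MEF peaks. On chromosome 5, a pair and its neighbouring pair were 12517 bp apart, 17 bp too far to form a cluster of 4 peaks. The first of these held G1297 peaks with a summed score of 4016 and a MEF peak, the other had a summed score of 504.5 and no MEF peak.

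Cluster peaks scored higher than solitary peaks. The median score was 363.2 over cluster peaks, 319.3 over peaks in pairs and 234.6 over solitary peaks, against 269.7 in the whole list. Of the cluster peaks, 858 (59.3%) scored above the list's median. The highest-scoring peak of a cluster had a median score of 1178, and the lowest-scoring peak of a cluster a median of 133.6, not far above the lowest score in the list, 90.04. In 207 clusters (51.4%) the highest score was at least 2 times the next, and in 65 (16.1%) at least 5 times. All peaks were above the list's median in 73 clusters and all were below it in 24.

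The strongest peak had no fixed place in the row. In the 259 clusters of 3 peaks it was the first or last in 163 (62.9%), the middle one in 92 (35.5%) and tied in 4. Because peaks in a row of 3 have 2 ends and 1 middle, these shares are close to an even spread over the places. Cluster peaks made up a growing part of the list towards high scores. Among 10 equal groups of the list by score, clusters held 13.3% of the lowest group and 26.3% of the highest, and solitary peaks 65.8% and 44.6%. A score of 3100, which many peaks share and which the list does not rank further, was reached or exceeded by at least 1 peak in 62 clusters. Why so many peaks share this score is not given in the sources used here. The percentiles place these peaks below those with higher scores, and this order is not read as a difference. Sums and ratios of scores that include such peaks are likewise a description only.

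With the full lists and any overlap, nearly all clusters had a counterpart in the MEFs. A MEF peak was counted in a cluster when it overlapped the span by at least 1 bp. This was so in 373 of 403 clusters (92.6%, interval from 89.5% to 94.9%). The share fell to 77.7% when only MEF peaks wholly inside the span were counted. It fell to 71.7% with a MEF list as long as that of G1297. With the full lists and any overlap, it was 68.3% over all joined groups, 79.7% over pairs and 64.0% over solitary peaks. A cluster is wider than a pair or a solitary peak and has more peaks that can be met, so these shares are not measured on equal terms. When each G1297 peak was taken singly, 885 of 1446 cluster peaks overlapped a MEF peak (61.2%, interval from 58.6% to 63.7%), against 62.8% over the whole list, 61.2% over peaks in pairs and 64.0% over solitary peaks. By peak, clusters were thus met by the MEF list about as often as the rest of the list.

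The spans held 968 MEF peaks, 3.57% of the MEF list, with a mean of 2.40 and a median of 2 per cluster. Of these, 603 lay wholly inside a span, and 506 were left with a MEF list as long as that of G1297. Counting all 968, there were 73 clusters with 1 MEF peak, 131 with 2, 94 with 3, 45 with 4 and 30 with 5 or more. The remaining 30 had 0. The 968 peaks are 157.2 MEF peaks per Mb of span, against 316.7 over all joined groups, 195.2 over pairs and 735.0 over solitary peaks. The span of a solitary peak is the peak itself, whereas the span of a cluster includes the gaps. In windows of the same width directly to the left and right of each span, there were 335 and 360 MEF peaks, or 54.4 and 58.5 per Mb. The windows had few G1297 peaks, 37 on the left and 39 on the right, because the joining distance keeps peaks out of the nearest bases. MEF peaks were more numerous in the span than in either window at 279 clusters (69.2%). A MEF peak in at least 1 of the windows was found at 321 clusters. Because the windows adjoin the spans, a MEF peak that crosses an edge may count in both. The window values are therefore not read as separate MEF sites beside the clusters.

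Most MEF peaks in the spans lay on a G1297 peak. Of the 968, 850 overlapped a G1297 peak and 118 (12.2%) lay between G1297 peaks, in 91 clusters. The MEF peaks on a G1297 peak had a median score of 838.9, the 76.8 percentile of the MEF list. Those in between had a median score of 220.1, the 37.0 percentile. At 43 places a single MEF peak overlapped 2 neighbouring G1297 peaks of a cluster, and none overlapped more.

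The clusters fell into classes by how many of their G1297 peaks were met. In 99 (24.6%) every G1297 peak overlapped a MEF peak, in 272 (67.5%) some did, in 2 a MEF peak lay only between the G1297 peaks, and in 30 (7.44%) there was no MEF peak in the span. The mixed class was thus the largest. With 62.8% of all G1297 peaks on a MEF peak, groups of several peaks are often mixed by number alone, so nothing is read from this. Clusters in which every peak was met had a median span of 12.4 kb and peaks with a median score of 478.2. In the mixed clusters these medians were 14.7 kb and 342.1, and in the clusters without a MEF peak 11.5 kb and 272.5. With 6 or more G1297 peaks, every cluster was mixed. These clusters are few, and with so many peaks a mixed makeup is likely by number alone.

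**Figure D1:**
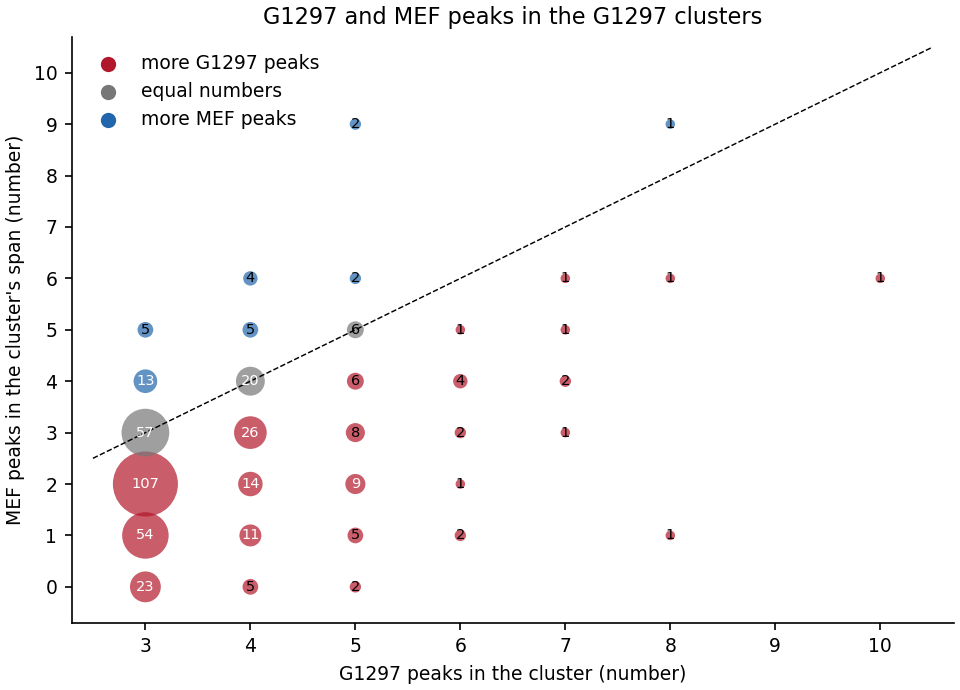
Number of MEF peaks in the span (vertical) against number of G1297 peaks (horizontal) for the 403 G1297 clusters. The area of a circle grows with the number of clusters, which is printed in it, and the dashed line marks equal numbers. Red circles (288 clusters) have more G1297 peaks, grey circles (83) equal numbers and blue circles (32) more MEF peaks.

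By number, G1297 peaks exceeded MEF peaks in most clusters, as the plot of MEF against G1297 peak numbers shows. There were more G1297 peaks in 288 clusters (71.5%), equal numbers in 83 and fewer in 32. Over all joined groups, 41.6% had more G1297 than MEF peaks. The clusters were selected on having many G1297 peaks, so this excess follows at least in part from the rule and nothing is read from it. The choice made the other way gave the mirrored picture. Of 2137 clusters formed from the MEF list by the same rule, 2067 (96.7%) had more MEF than G1297 peaks and 1019 (47.7%) had a G1297 peak at all. The MEF list is the longer, and with its 8090 highest-scoring peaks alone there were 274 MEF clusters, of which 88.0% had more MEF than G1297 peaks and 66.4% had a G1297 peak. In that setting 382 G1297 clusters had more G1297 peaks and 1 had fewer. With the full MEF list, the median over the G1297 clusters was 0.667 MEF peaks per G1297 peak, with quartiles of 0.333 and 1. It was 0.333 with lists of equal length, and also when only MEF peaks wholly inside the span were counted.

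The number of MEF peaks per G1297 peak, pooled over all clusters of a size, showed no steady course with size. It was 0.664 over clusters of 3 peaks, 0.724 over those of 4 and 0.626 over the 59 clusters of 5 or more. Among the latter it ran from 0.517 at 6 peaks to 0.667 at 8. The median per cluster was 0.750 over clusters of at least 4 peaks. Of the G1297 peaks themselves, 61.4% lay on a MEF peak in clusters of 3, 65.6% in clusters of 4 and 56.2% in clusters of 5 or more (interval from 50.7% to 61.7%). These intervals overlap, and no order by size is read from them.

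Which peaks of a cluster were met went with their score. The highest-scoring peak overlapped a MEF peak in 317 clusters (78.7%, interval from 74.3% to 82.6%) and the lowest-scoring peak in 188 (46.7%, interval from 41.7% to 51.7%). Within the 272 mixed clusters, the highest-scoring peak was met and the lowest-scoring was not in 155, and the reverse held in 26. The 557 peaks that were met in these clusters had a median score of 580.1, and the 456 that were not had a median of 207.5. Over the whole G1297 list, the share met also rose with score. It was 44.4% in the lowest of the 10 equal groups by score and 86.9% in the highest. The link with score is thus not particular to clusters. The place in the row and the distance to the neighbour made little difference. Of the peaks at the ends of a cluster 61.4% were met, and of the inner peaks 60.9%. A MEF peak was overlapped by 60.2% of cluster peaks with a neighbour under 1000 bp away, by 62.7% with the nearest at 1000 to 5000 bp and by 60.0% with the nearest further away.

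At equal score, peaks in clusters and in pairs were met less often than solitary peaks over most of the list. In the lowest of the 10 equal groups by score, 33.3% of cluster peaks (36 of 108), 44.4% of peaks in pairs (75 of 169) and 46.6% of solitary peaks (248 of 532) overlapped a MEF peak. The share in clusters was below that of solitary peaks in 8 of the 10 score groups and below that of pairs in 6, and in the highest group it was 87.3%, beside 86.8% in pairs and 86.7% among solitary peaks. Weighted to the score makeup of the clusters, solitary peaks would have had a share of 67.9% and peaks in pairs 62.4%, against the 61.2% found in clusters, so the lower share is not particular to clusters. Median peak widths within a score group were close, for example 590 bp in clusters and 588 bp among solitary peaks in the lowest.

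**Figure D2:**
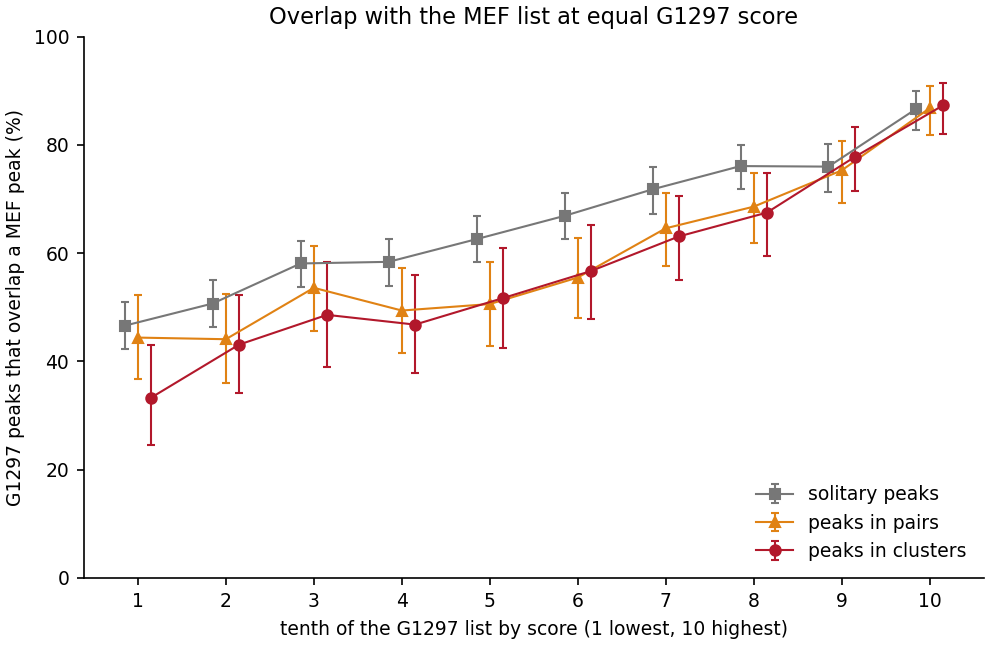
Percent of G1297 peaks that overlap a MEF peak (vertical) in 10 equal groups of the G1297 list by score (horizontal), for solitary peaks (grey squares), peaks in pairs (gold triangles) and peaks in clusters (red circles). Bars are 95% exact binomial intervals. The red points lie below the grey ones in the 8 lower score groups and beside them in the 2 highest.

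The size of the MEF list bears on these shares. When it was limited to its 8090 highest-scoring peaks, as many as in G1297, the share of cluster peaks that overlapped a MEF peak fell to 36.6%, beside 35.2% for solitary peaks and 35.4% for the list. The share of clusters with a MEF peak was then 71.7%, and 114 clusters had none. In this setting the lowest MEF score was 629.1.

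G1297 peaks of clusters that were not met were often close to a MEF peak. Their distance to the nearest MEF peak had a median of 5166 bp, and 273 of 561 (48.7%) lay within 5000 bp. Among solitary peaks that were not met, the median was 30146 bp and 162 of 1714 (9.45%) lay within 5000 bp. Since most clusters hold a MEF peak somewhere in their span, a short distance is in part a property of the cluster.

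A MEF cluster overlapped 212 of the 403 G1297 clusters (52.6%, interval from 47.6% to 57.6%). The share was 18.5% of all joined groups, 28.5% of pairs and 13.6% of solitary peaks. Median spans were 13.8 kb in clusters, 5851 bp in pairs and 787 bp in solitary peaks, so these shares are not on equal terms. In the other direction, 213 of the 2137 MEF clusters (9.97%) overlapped a G1297 cluster. There were 214 pairs of overlapping clusters. The MEF cluster was the wider in 145 of them (67.8%) and reached past both ends of the G1297 cluster in 88, while the G1297 cluster reached past both ends of the MEF cluster in 11. Median spans in these pairs were 16.8 kb in the MEFs and 14.7 kb in G1297, with a median of 4 and 3 peaks. With lists of equal length, 12.9% of G1297 clusters overlapped a MEF cluster. The MEF cluster was then the wider in 35 of 53 pairs (66.0%), and median spans were 15.6 kb in the MEFs and 16.1 kb in G1297.

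The rank of the top peak in each list was as follows. The highest-scoring G1297 peak of a cluster stood at a median percentile of 86.3 in its list. The highest-scoring MEF peak in the span stood at a median percentile of 90.5 in the MEF list. These medians were 75.7 and 82.0 over pairs, 44.9 and 73.7 over solitary peaks, and 53.4 and 76.9 over all joined groups. The best of several peaks ranks higher by construction, so these values are not on equal terms. The MEF value of clusters fell to 78.6 with a MEF list as long as that of G1297. It fell to 79.8 when only MEF peaks wholly inside the span were counted. Whether it lies above or below the G1297 value of clusters thus depends on the setting. The difference, G1297 minus MEF, had a median of 0.806 points over the 373 clusters with a MEF peak, with quartiles of -10.8 and 10.1. Clusters whose best peak scored 3100 in both lists all have a difference of 0.81. The median thus falls on tied ranks, and nothing is read from it. Both were in the upper 10% of their lists in 99 clusters. In 15 clusters the G1297 peak was in the upper 10% and the best MEF peak below the median of its list, and the opposite was seen in 7. Spearman's rho between the percentiles was 0.276 over the 373 clusters, 0.326 over 751 pairs and 0.258 over 3046 solitary peaks with a MEF peak. These are regions of the same libraries and not replicates. The highest-scoring peaks of both lists lay on each other in 212 of the 373 clusters (56.8%), and in 168 of the 300 with 2 or more MEF peaks (56.0%).

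**Figure D3:**
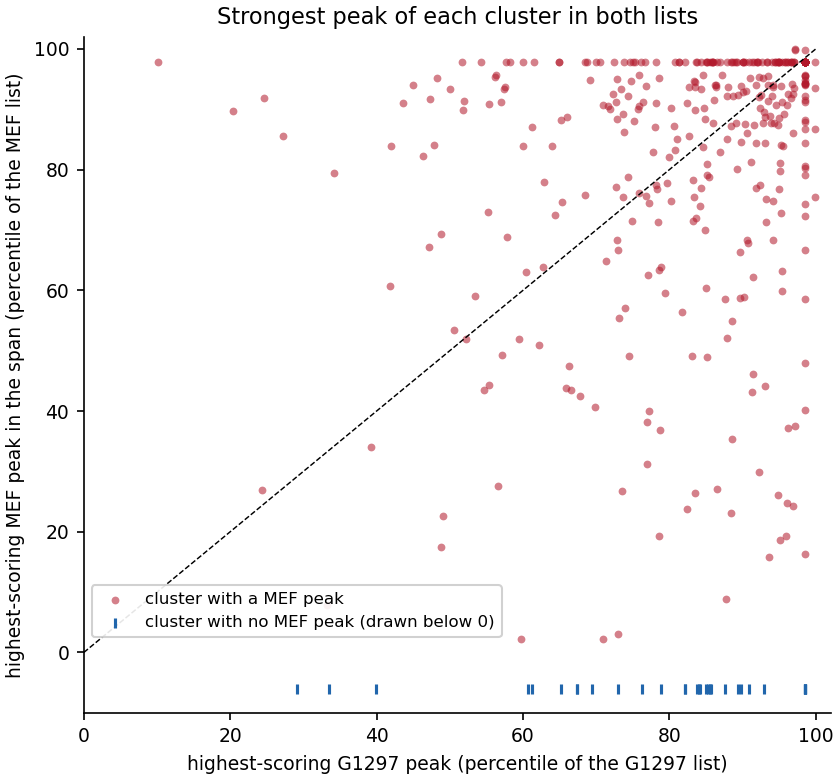
Percentile of the highest-scoring MEF peak in the span within the MEF list (vertical) against the percentile of the cluster's highest-scoring G1297 peak within the G1297 list (horizontal), 1 red point for each of 373 clusters with a MEF peak. Blue marks below 0 are the 30 clusters without one, and the dashed line marks equal percentiles. Points gather in the upper right corner, and the rows of points near its edges are peaks that share a score of 3100.

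Particular clusters show how far the lists agreed or parted at single places. The cluster with the most G1297 peaks, chr6:31038295-31085469, had 10 peaks over 47.2 kb with a summed score of 8450.5. Its 6 MEF peaks lay on 5 of the 10 and once in between. Its strongest G1297 peak, with a score of 2804 and 11.1 kb from the start, lay under a MEF peak with a score of 3100. The other strong peak, near the far end, stood at the 94.05 percentile in G1297 and at the 70.38 percentile in the MEFs. Between them, 5 neighbouring G1297 peaks with scores from 90.51 to 839.4 had no MEF peak on them.

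The widest cluster, chr15:27705219-27766470, had 8 G1297 and 9 MEF peaks over 61.3 kb. The lists shared 5 sites there, among them the strongest of each, with a score of 3100 in G1297 and 3105 in the MEFs. The MEF peaks not on a G1297 peak were 4, all in the left part, and the strongest of them scored 1763. At 2 shared sites on the right, the G1297 peaks stood at percentiles of 86.33 and 91.17 and the MEF peaks at 13.91 and 41.35. The second widest, chr11:119005789-119053624, had 6 G1297 peaks over 47.8 kb, of which 5 lay on its 5 MEF peaks.

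The other 8-peak clusters were as follows. On chromosome 13, chr13:68861542-68905402 had 6 MEF peaks. On chromosome 18, chr18:25835881-25881349 had 1 MEF peak, the largest excess of G1297 peaks among all clusters. That MEF peak had a score of 3100 and lay on the strongest G1297 peak, also at 3100. The other 7 G1297 peaks had scores from 99.28 to 1107, and none was met. A similar layout was seen at chr10:60098375-60140494, where 1 of 6 G1297 peaks, the strongest, lay on a MEF peak with a score of 3048. At chr15:84129094-84141725, in contrast, the single MEF peak (score 579.3) lay on a G1297 peak with a score of 506.3, and the strongest of the 6 G1297 peaks, at 1587, was not met.

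Among clusters of 7 peaks, the highest summed G1297 score of all clusters, 9361, was found at chr6:140480431-140513578. It had 6 MEF peaks, of which 4 lay on G1297 peaks. Its strongest G1297 peak, at 3100, was not among those met, and the best MEF peak, at 1240, lay on a G1297 peak with a score of 1475. The remaining named clusters of 7 peaks were chr13:110705912-110743210 with 3 MEF peaks, chr3:101938504-101973603 with 4 and chr12:86761891-86796885 with 5. The next highest summed scores were those of chr11:114919857-114940389, with 6 G1297 and 4 MEF peaks, and of the clusters on chromosomes 15 and 6 described above. At chr2:148347532-148356861, with a summed score of 8356 over only 9.33 kb, all 4 G1297 peaks lay on 4 MEF peaks. Their scores from left to right were 2431, 2498, 3100 and 327.3 in G1297, and 3100, 3100, 1887 and 122.0 in the MEFs. At chr6:53512123-53537351, 5 G1297 peaks and 5 MEF peaks shared 3 sites.

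In 32 clusters MEF peaks outnumbered G1297 peaks, and 109 of the 118 G1297 peaks of these clusters (92.4%) were met. Every G1297 peak was met in 26 of the 32. Over all clusters, 61.2% of G1297 peaks were met, beside 62.8% over the whole list, and 24.6% of clusters had every peak met. When only MEF peaks wholly inside the span were counted, 7 clusters had more MEF peaks and 372 more G1297 peaks. These clusters were picked for their larger number of MEF peaks, which makes such overlaps more likely, so nothing is read from the higher shares. The largest surplus, 4 MEF peaks, was found in 2 clusters. At chr17:71408352-71439285, all 5 G1297 peaks lay on MEF peaks, and 4 further MEF peaks with scores from 97.30 to 279.1 lay between them. The outer peaks were the strongest in both lists, with scores of 3100 and 1694 in G1297 and 2150 and 2592 in the MEFs. The same counts, 5 G1297 peaks that were all met and 4 further MEF peaks, were found at chr14:105636661-105673427.

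**Figure D4:**
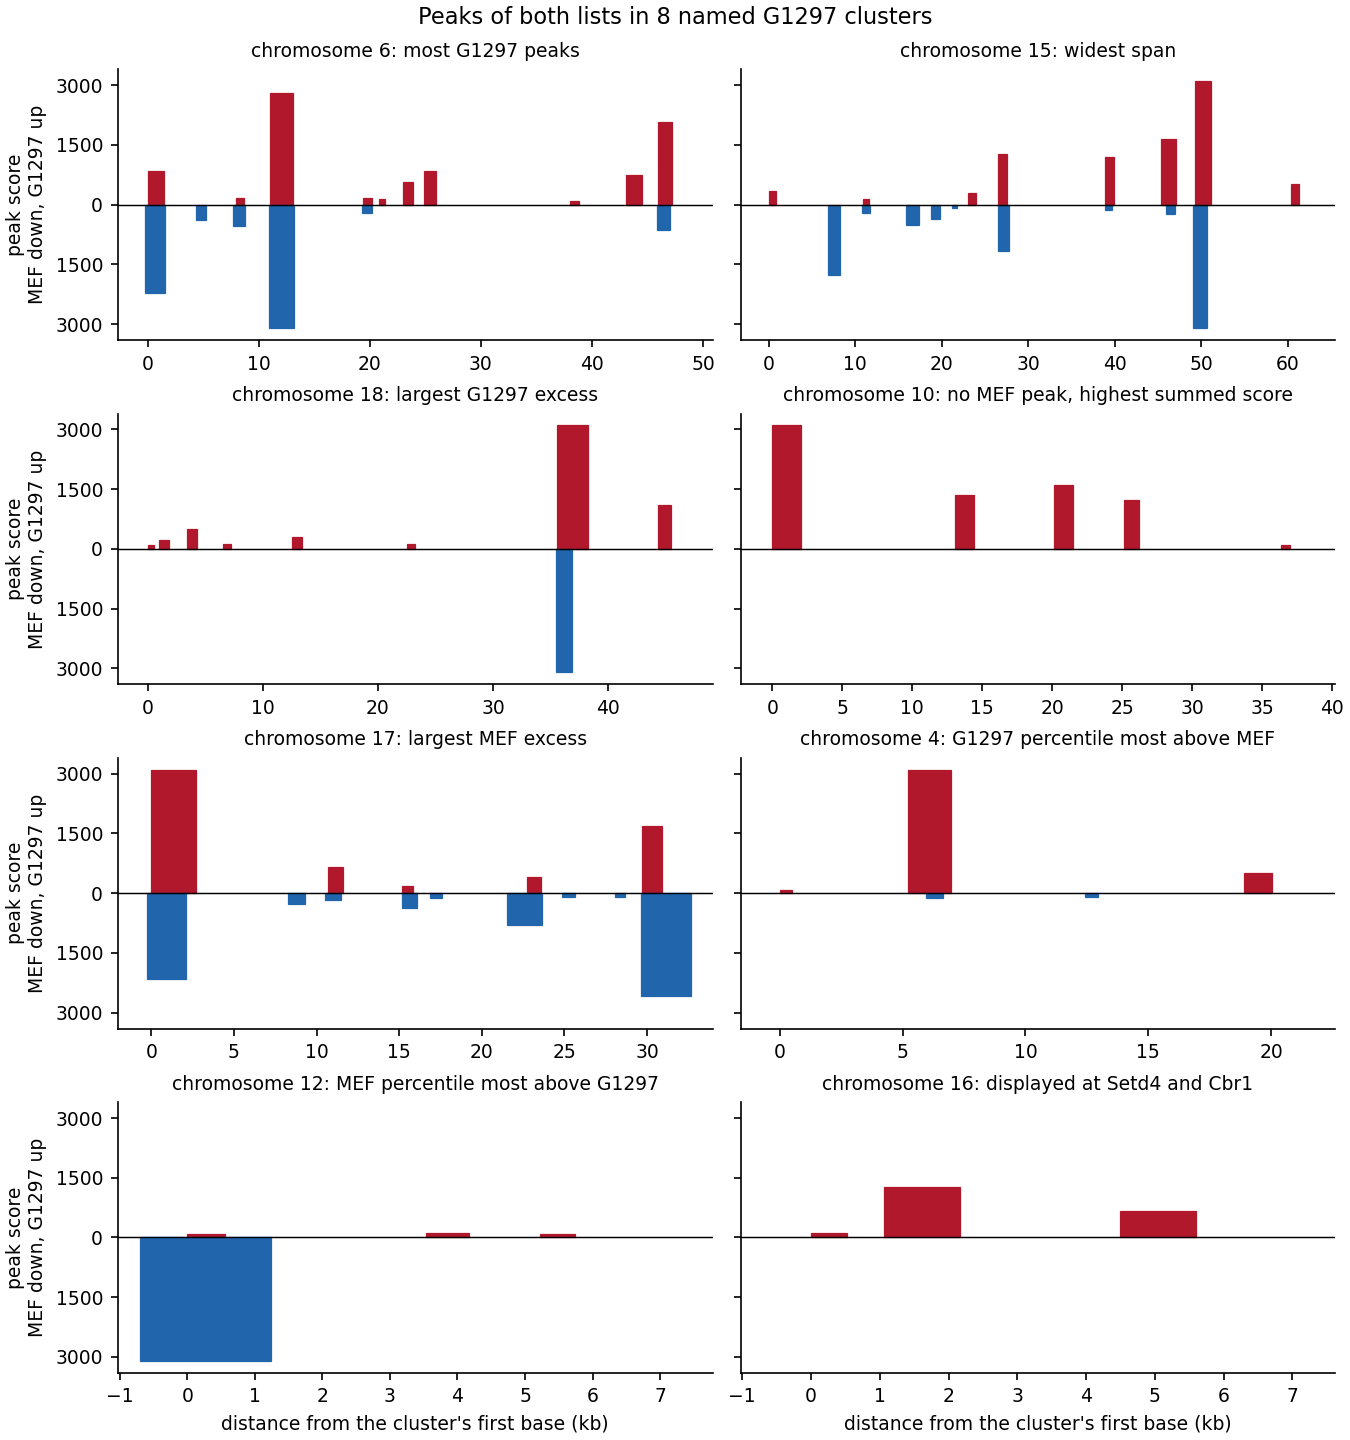
Peaks of G1297 (red, upward) and of the MEFs (blue, downward) in 8 named clusters, with distance from the first base of the cluster in kb (horizontal) and the peak score in its own list (vertical). Each bar has the width of its peak, and only MEF peaks that overlap the span are drawn. The top row shows clusters with peaks of both lists, and the chromosome 18 and chromosome 10 panels show 8 G1297 peaks beside 1 MEF peak and 5 G1297 peaks beside 0 MEF peaks.

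In the 30 clusters without a MEF peak, 23 had 3 G1297 peaks, 5 had 4 and 2 had 5. Their highest score had a median of 999.1 and an upper quartile of 1417, against 1228 and 2276 in the clusters with a MEF peak. A peak above the list's median was found in 27 of the 30, and in 379 of all 403 clusters. The nearest MEF peak lay at a median of 31.9 kb from the span. In 8 it was within the joining distance of the span's edge, the closest at 219 bp, and in 9 it was over 100 kb away. They were spread over 15 chromosomes, with 4 on chromosome 4 and 3 each on chromosomes 1 and 10. The number of clusters without a MEF peak was 19 of 295 with neighbours less than 1000 bp apart counted as 1 peak, 90 when only MEF peaks wholly inside the span were counted and 114 with a MEF list as long as that of G1297.

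The highest summed score among them was 7373, at chr10:69630881-69667854. It had 5 G1297 peaks over 37.0 kb with scores of 3100, 1347, 1606, 1219 and 101.1 from left to right, and the nearest MEF peak was 44.2 kb away. The next were chr1:184255950-184264787 with a summed score of 4672, 33.1 kb from a MEF peak, chr11:103242708-103253394 with 3748 and chr14:31374668-31386891 with 3492. Each of these had 3 peaks, of which 1 scored 3100. The chromosome 11 cluster was the most remote of the 6 named, with no MEF peak within 146.8 kb. The last of the 6 were chr1:120375542-120385244 (summed score 2575, 109.4 kb from a MEF peak) and chr2:5364518-5383111 (2314, 22.0 kb). The narrowest of all 403 clusters, chr4:152862285-152865072, also had no MEF peak, and its 3 peaks had scores from 92.14 to 157.6 in 2.79 kb. The next narrowest, chr1:132382278-132385182, had 1 MEF peak, on its strongest G1297 peak.

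The cluster chr16:93592098-93597697, in a chromosome 16 region that a figure of the study shows with Setd4 and Cbr1 labelled in it, was also among the 30 without a MEF peak in the span. The nearest MEF peak was 6884 bp from the span, inside the joining distance. The gene names are the labels of that figure, and no gene was assigned here. Setd4 encodes a SET domain methyltransferase and Cbr1 a carbonyl reductase. The 3 peaks of the cluster had a summed score of 2047, which placed it at 202 of the 403 clusters and at 8 of the 30 without a MEF peak. It is thus of middle rank among the clusters by summed score. Its gaps were well inside the joining distance, the larger being 2326 bp, and its span of 5.6 kb was below the lower quartile of all spans.

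Where both lists had peaks, the widest differences in percentile, taken with the full lists, had either sign. At chr4:129533001-129553016, the best G1297 peak scored 3100 and the best MEF peak in the span 131.2, a difference of 82.2 percentile points. At chr19:43573245-43597028, chr8:121055010-121066760 and chr11:116039491-116051001, the differences were 78.8, 77.8 and 76.7 points, with the best MEF scores between 110.2 and 140.2. In the opposite direction, the 3 G1297 peaks of chr12:71991963-71997708 scored at most 107.2, while a MEF peak at its left end scored 3100, a difference of -87.6 points. At chr1:137623413-137628911, chr5:104639909-104655172 and chr15:59659463-59663024 the differences were -69.3, -67.2 and -58.3 points. In the last of these, every one of the 3 G1297 peaks lay on a MEF peak. The best G1297 peak, at the 27.27 percentile, lay on a MEF peak at the 81.04 percentile, and the best MEF peak, at 85.58, on the weakest G1297 peak, at 4.42.

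Clusters were spread unevenly over the chromosomes. Chromosome 6 had 43 and chromosome 10 had 36, and together these had 79 of 403 (19.6%), with 14.9% of the G1297 peaks. They also had 18 of the 59 clusters of 5 or more peaks. The share of a chromosome's G1297 peaks that lay in clusters was 26.4% on chromosome 6, 23.3% on chromosome 10 and 22.6% on chromosome 16, and was lowest among autosomes on chromosome 7, at 10.6%. On chromosome X, none of the 37 G1297 peaks was in a cluster. No copy-number values were used here.

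**Figure D5:**
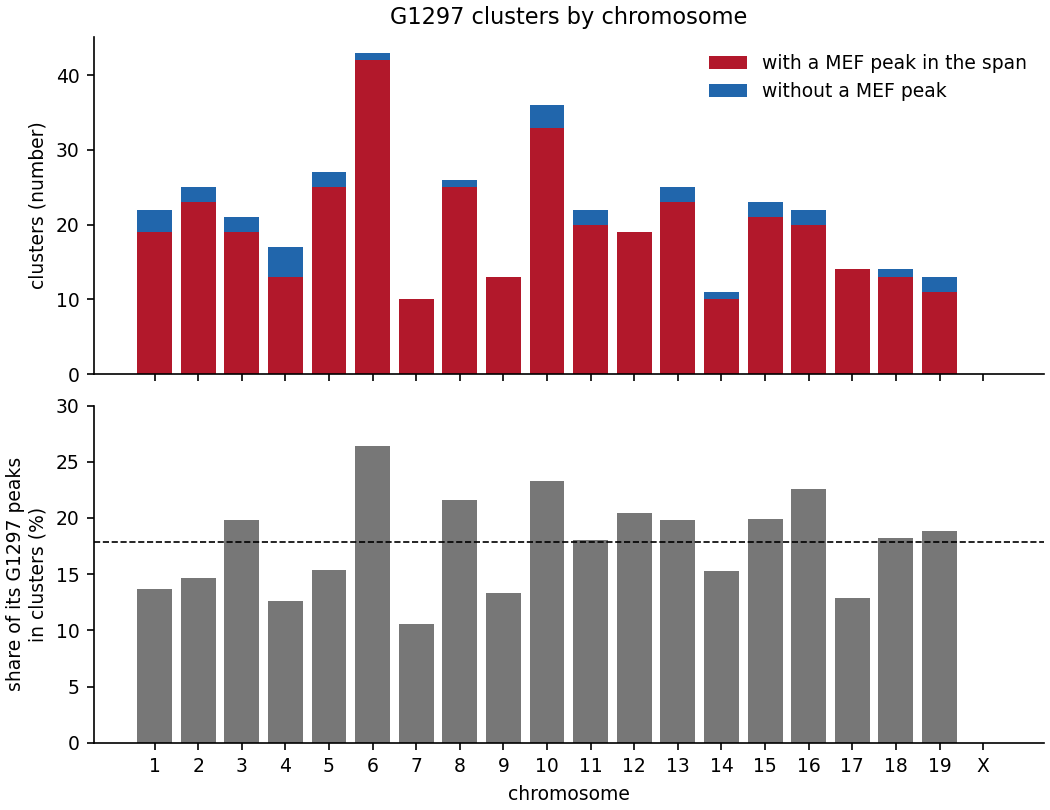
Number of G1297 clusters on each chromosome (upper panel, red with and blue without a MEF peak in the span) and percent of the chromosome's G1297 peaks that lie in clusters (lower panel). The dashed line is the share over the whole list, 17.9%. Chromosomes 6 and 10 have the most clusters and the largest shares, and X has 0 clusters.

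The MEF counterparts also varied by chromosome. On chromosome 6, 42 of 43 clusters had a MEF peak, and on chromosomes 7, 9, 12 and 17 all had one (10, 13, 19 and 14 clusters). Chromosome 4 had the most without, 4 of 17. Of cluster peaks, 59.6% overlapped a MEF peak on chromosome 6 and 50.7% on chromosome 10, where all peaks gave 55.8% and 55.7%. The highest shares were 73.9% on chromosome 17 and 73.7% on chromosome 14, from 46 and 38 cluster peaks, where all peaks gave 66.7% and 72.2%. The lowest were 25 of 50 cluster peaks on chromosome 18 and, after chromosome 10, 23 of 45 (51.1%) on chromosome 19, where all peaks gave 65.8% and 68.6%. Without chromosomes 6 and 10, a setting chosen after seeing the data, 62.7% of cluster peaks overlapped a MEF peak and 92.0% of 324 clusters had one, so neither value rests on these chromosomes.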

How the data were processed

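The authors aligned single-end ChIP-Seq reads with Bowtie2 (version 2.2.0) to mm9 and called peaks with MACS (version 1.4.2) at a P value of 1e-09, per the submitters' processing notes and the methods. They deposited 1 list per cell type, with a score for each peak. Which libraries and inputs entered the G1297 list is not given in the sources used here. From these lists, peaks were joined at 12500 bp, and overlaps of at least 1 bp, percentiles (ties at their mean rank) and exact binomial intervals were computed with pandas 2.3.3, numpy 2.4.6 and scipy 1.17.1 in Python 3.11.15. The functions were tested on simulated lists. Named clusters were the 8 with the most G1297 peaks, the 6 with the highest summed score, the 6 highest without a MEF peak, the 4 with the most MEF peaks, the 4 with the largest excess of G1297 peaks, the 2 widest and 2 narrowest, the 4 at each end of the percentile difference, the 3 clusters of 3 peaks nearest to the joining distance from below, the 3 pairs nearest to it from above, and any cluster in the chromosome 16 region of a figure. Members and lists were chosen with earlier results of these data known. No test was made. Genes and sequences were not assigned, because the genome used here was mm10. The KRAB fusion and input libraries were not analysed here.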

Additional observations from a re-analysis of the deposited data

How the results depend on the processing

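Of 85 values recomputed under an alternative, 46 stayed within 1.5 times (counts) or within the 95% interval (shares and medians). Some of the 46 could not move, such as the median highest G1297 percentile when only the MEF list or its overlap rule changed. With a joining distance of 5000 bp there were 166 clusters with 6.74% of the peaks, 89.2% with a MEF peak and 18 without, 324 MEF peaks in the spans, 39.8% on a MEF cluster and 133 with more G1297 than MEF peaks. With 25000 bp there were 632 clusters with 30.9% of the peaks, 1899 MEF peaks and 66.9% on a MEF cluster. With distances from centre to centre 16.6% of the peaks were in clusters. With at least 4 peaks there were 144 clusters with 8.27% of the peaks, 95.1% with a MEF peak and 7 without, 452 MEF peaks, a median of 0.750 MEF peaks per G1297 peak, 104 with more G1297 peaks and a median highest percentile of 91.6. With scores of at least 200 in both lists there were 171 clusters with 12.0% of the peaks, 88.3% with a MEF peak, 378 MEF peaks, 46.2% on a MEF cluster and 119 with more G1297 peaks. These counts are smaller or larger by construction, since fewer or more peaks can be joined.

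With a MEF list as long as that of G1297, 71.7% of clusters had a MEF peak and 114 had none, with 506 MEF peaks, 36.6% of cluster peaks met, a median of 0.333 MEF peaks per G1297 peak and 12.9% on a MEF cluster. With MEF peaks wholly inside the span these were 77.7%, 90, 603 and a median of 0.333. Chosen after seeing the data, a count without chromosomes 6 and 10 had 16.6% of peaks in clusters, and one with neighbours under 1000 bp apart as 1 peak had 13.4%, with 19 clusters without a MEF peak. When 50% of the shorter peak had to be shared, 60.4% of cluster peaks were met. The alternative for gene assignment was not run, for lack of an annotation in mm9. No paired analysis was possible because the lists hold no values per replicate, and for this reason no replicate could be left out. The read depth of both lists is unknown, which limits their comparison.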
